A study of Mus musculus with 10 samples.

Results

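The microglia and phagocyte genes described here are 10 genes, Cx3cr1, P2ry12, Tmem119, Aif1, Csf1r, Trem2, Tyrobp, Cd68, Ctss and Laptm5, listed by name and looked up by Ensembl identifier in the deposited gene tables. The gene tables hold 11702 genes, and 4 of the 10 were among them (Cx3cr1, Csf1r, Ctss and Laptm5). The other 6 were found in the transcript table, where their counts over the 10 libraries sum to 311 for Aif1 and to 1101 to 1412 for the other 5, against 3631 to 9703 for the 4 genes of the gene tables. The transcripts of these 6 were therefore summed per gene and set on the scale of the deposited CPM (gene counts divided by a scaled library size), so that all 10 could be described.

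The 10 libraries were made from retinal RNA of female mice at P36. The rd10 mouse (B6.CXB1-Pde6brd10/J) carries a germline mutation in Pde6b, a subunit of the rod phosphodiesterase, and loses its rods. Control WT mice (W1-W4) and control rd10 mice (D1-D3) were given DMSO, and treated rd10 mice (HAL, H1-H3) halofantrine, an antimalarial drug. Each injection was 1 μL into the vitreous at P10 and at P24, with the drug at 20 μM. Per the labels, batch 1 comprised W1-W4, H1, D2 and D1, batch 2 comprised H2, H3 and D3, and what sets the batches apart is not said. The titles also name sets, one for W1-W3, another for W4, one shared by D1, D2 and H1, one for H2 and H3 and one for D3, so no set holds both genotypes. No uninjected eye was among the groups, and the strain of the WT mice is not given in the sources used here. Whole retina was sequenced, so for all genes below a change in the number of microglia and a change in RNA per microglial cell cannot be told apart.

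The library labelled WT W4 stood apart from W1-W3. Its 9 rod markers summed to 2566 CPM, against 70389 to 74655 CPM in W1-W3 and 3320 to 10516 CPM in the 6 rd10 libraries. The comparisons of the 10 genes and of the gene lists in rd10 DMSO with WT are therefore given without it and then with it. Gene counts ranged from 15512212 in D3 to 38160436 in D2.

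Microglia are the resident macrophages of the retina. In the healthy retina they lie in the synaptic layers and survey them with fine processes, and in rod degeneration they move into the photoreceptor layer and engulf dying rods. They depend on signalling through the Csf1 receptor, sense fractalkine and nucleotides through Cx3cr1 and P2ry12, and bind lipids and cell debris through Trem2, which signals through the adaptor Tyrobp.

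Promoters are shown because PU.1 (encoded by Spi1), a transcription factor needed for the macrophage lineage, is known to bind at many microglial genes. They cover 250 bases before to 50 bases after the start site (RefSeq, GRCm38.p6), and 7 of the 10 genes were searched, leaving out Csf1r, Tmem119 and Tyrobp. A match is a description of the letters and not a site. Motifs were searched on both strands as GAGGAA (PU.1 core), GAGGAAGT (a longer PU.1 form that contains the core) and TGTGGT (RUNX). Below are the promoters of the 2 genes with the largest rise, Ctss (chr3:95526536-95526835, plus strand) and Laptm5 (chr4:130913066-130913365, plus strand), of Cd68 (chr11:69666121-69666420, minus strand), which like Ctss holds 2 cores, and of P2ry12 (chr3:59262936-59263235, minus strand), the gene with the smallest rise, with motifs or their reverse complements in capitals.
Ctss: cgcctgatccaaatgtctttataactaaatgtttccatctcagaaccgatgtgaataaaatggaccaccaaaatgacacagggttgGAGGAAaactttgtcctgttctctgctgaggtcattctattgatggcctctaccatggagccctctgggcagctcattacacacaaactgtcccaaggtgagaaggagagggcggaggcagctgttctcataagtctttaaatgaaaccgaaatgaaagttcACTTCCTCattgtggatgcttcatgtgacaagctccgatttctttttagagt
Laptm5: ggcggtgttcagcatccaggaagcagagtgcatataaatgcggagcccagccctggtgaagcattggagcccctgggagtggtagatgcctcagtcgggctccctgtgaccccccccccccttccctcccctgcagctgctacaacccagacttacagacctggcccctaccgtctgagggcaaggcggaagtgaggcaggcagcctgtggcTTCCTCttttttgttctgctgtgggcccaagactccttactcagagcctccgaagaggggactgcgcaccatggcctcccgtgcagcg
Cd68: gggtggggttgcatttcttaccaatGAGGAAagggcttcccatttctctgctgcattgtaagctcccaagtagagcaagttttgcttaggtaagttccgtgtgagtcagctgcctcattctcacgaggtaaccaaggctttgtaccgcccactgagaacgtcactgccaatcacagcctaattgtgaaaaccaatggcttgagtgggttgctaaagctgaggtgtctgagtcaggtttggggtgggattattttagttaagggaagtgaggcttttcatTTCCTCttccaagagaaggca
P2ry12: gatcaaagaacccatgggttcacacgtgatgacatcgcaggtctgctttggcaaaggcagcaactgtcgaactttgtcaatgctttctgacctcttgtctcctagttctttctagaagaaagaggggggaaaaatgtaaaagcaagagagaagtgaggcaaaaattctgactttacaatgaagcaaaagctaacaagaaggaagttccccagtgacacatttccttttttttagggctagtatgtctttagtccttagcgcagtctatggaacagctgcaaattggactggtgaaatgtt
The core was found in 5 of 7 promoters (Aif1, Cd68, Ctss, Laptm5 and Trem2), against 28.3% of 32851 mouse promoters. The longer form was found in 1 of 7, that of Ctss, against 3.2% of all, and TGTGGT in 1 of 7, that of Cx3cr1, against 16.8%. The window of P2ry12 held none of these motifs. Cx3cr1, with a log2 fold change of 2.13 in rd10 DMSO, held no core, and Trem2, at 1.55, held 1. A link between the motifs and the changes was not tested.

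The first question was how the genes differ between the degenerating and the WT retina. All 10 genes were higher in rd10 DMSO than in W1-W3, by 2.15-fold (P2ry12) to 5.54-fold (Laptm5) in 1 fit over genes summed from transcripts. In that fit, 10 of 10 passed the test (edgeR's quasi-likelihood test, Benjamini-Hochberg adjusted p from 1.45e-05 to 0.00491), where 26.9% of 17324 genes were called higher. In the fit on the deposited gene table, 4 of 4 passed it, where 32.3% of 11696 genes were called higher. The median log2 fold change of the 10 genes was 2.06, beside 0.003 over all genes tested. The lowest rd10 library lay above the highest of W1-W3 for 10 of 10 genes, where 32.0% of genes showed that pattern in rd10 DMSO.

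Among the surface receptors, Cx3cr1, the receptor of the neuronal chemokine fractalkine, was at 4.56, 3.27 and 3.91 CPM in W1-W3, at 19.0, 19.6 and 12.0 CPM in D1-D3 and at 17.9, 13.05 and 15.7 CPM in H1-H3. Every rd10 library was above every one of W1-W3, with D3 the lowest of the rd10 libraries. The log2 fold change of rd10 DMSO was 2.13 ± 0.23 (SE, edgeR, adjusted p = 0.000186).

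Csf1r, the receptor of the growth factors Csf1 and Il34, on which microglial survival depends, was at 11.2, 9.54 and 15.1 CPM in W1-W3, at 48.1, 43.9 and 39.96 CPM in D1-D3 and at 44.7, 35.8 and 41.8 CPM in H1-H3. The rd10 libraries lay close together, and W1-W3 did not reach them. The log2 fold change was 1.90 ± 0.16 (SE, edgeR, adjusted p = 7.47e-05). In GENCODE M21, 873 of its 5774 exon bases overlap exons of Hmgxb3 on the opposite strand, and whether the counting used strand is not given in the sources used here.

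P2ry12, a nucleotide receptor that directs microglial processes and is a marker of the resting state, was at 2.41, 2.41 and 2.63 CPM in W1-W3, at 4.23, 5.53 and 6.59 CPM in D1-D3 and at 5.78, 5.76 and 5.70 CPM in H1-H3. Its groups did not overlap, yet its log2 fold change, 1.10 ± 0.21 (SE, edgeR, adjusted p = 0.00308), was the smallest of the 10. Tmem119, a membrane protein used to tell microglia from other macrophages, was at 1.75, 1.81 and 1.93 CPM in W1-W3, at 6.66, 5.56 and 4.37 CPM in D1-D3 and at 6.41, 4.197 and 6.56 CPM in H1-H3. It rose by 1.58 ± 0.21 on the log2 scale (SE, edgeR, adjusted p = 0.000593).

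Trem2, the lipid-sensing receptor, was at 1.99, 2.06 and 2.11 CPM in W1-W3, at 6.42, 6.90 and 4.99 CPM in D1-D3 and at 6.45, 6.34 and 6.44 CPM in H1-H3. Tyrobp, the adaptor that carries its signal, was at 1.04, 1.10 and 1.70 CPM in W1-W3, at 6.83, 5.90 and 4.37 CPM in D1-D3 and at 5.97, 6.16 and 5.84 CPM in H1-H3. Receptor and adaptor both separated rd10 from W1-W3, and D3 was the lowest rd10 library for each. The log2 fold changes in rd10 DMSO were 1.55 ± 0.19 for Trem2 (SE, edgeR, adjusted p = 0.000373) and 2.14 ± 0.27 for Tyrobp (adjusted p = 0.000439). A retained-intron transcript took 29.3% to 56.3% of the Trem2 counts, so not all of them stand for the protein-coding message.

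Ctss, cathepsin S, a lysosomal protease of antigen-presenting cells, was at 9.84, 7.18 and 7.25 CPM in W1-W3, at 45.9, 43.4 and 46.8 CPM in D1-D3 and at 41.8, 44.7 and 53.2 CPM in H1-H3. Laptm5, a lysosomal membrane protein of blood-derived lineages, was at 4.26, 3.51 and 3.45 CPM in W1-W3, at 23.0, 21.4 and 19.0 CPM in D1-D3 and at 22.2, 18.9 and 17.0 CPM in H1-H3. Both genes were far above W1-W3 in every rd10 library. They had the largest log2 fold changes of the 10, 2.50 ± 0.13 for Ctss (SE, edgeR, adjusted p = 1.57e-05) and 2.51 ± 0.14 for Laptm5 (adjusted p = 1.7e-05) in the gene table. Their 95% intervals, 2.19 to 2.80 and 2.19 to 2.83, overlap almost wholly, so their order was not resolved.

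Cd68, a lysosomal glycoprotein of phagocytes, was at 1.47, 1.155 and 1.11 CPM in W1-W3, at 5.36, 5.90 and 5.17 CPM in D1-D3 and at 4.97, 4.08 and 4.92 CPM in H1-H3. It rose by 2.11 ± 0.20 on the log2 scale (SE, edgeR, adjusted p = 0.000117). Aif1, which encodes the calcium-binding protein Iba1 used to stain microglia, was the least abundant, with 3, 9 and 8 counts in W1-W3 (0.142, 0.452 and 0.468 CPM). It reached 1.67, 1.42 and 1.29 CPM in D1-D3 and 1.55, 1.30 and 1.01 CPM in H1-H3, still without overlap. Its log2 fold change, 2.03 ± 0.42 (SE, edgeR, adjusted p = 0.00491), had the widest interval of the 10, from 1.05 to 3.01. Aif1 was kept for testing through its rd10 levels, so nothing is read from its part in the counts of genes called against W1-W3.

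**Figure D1:**
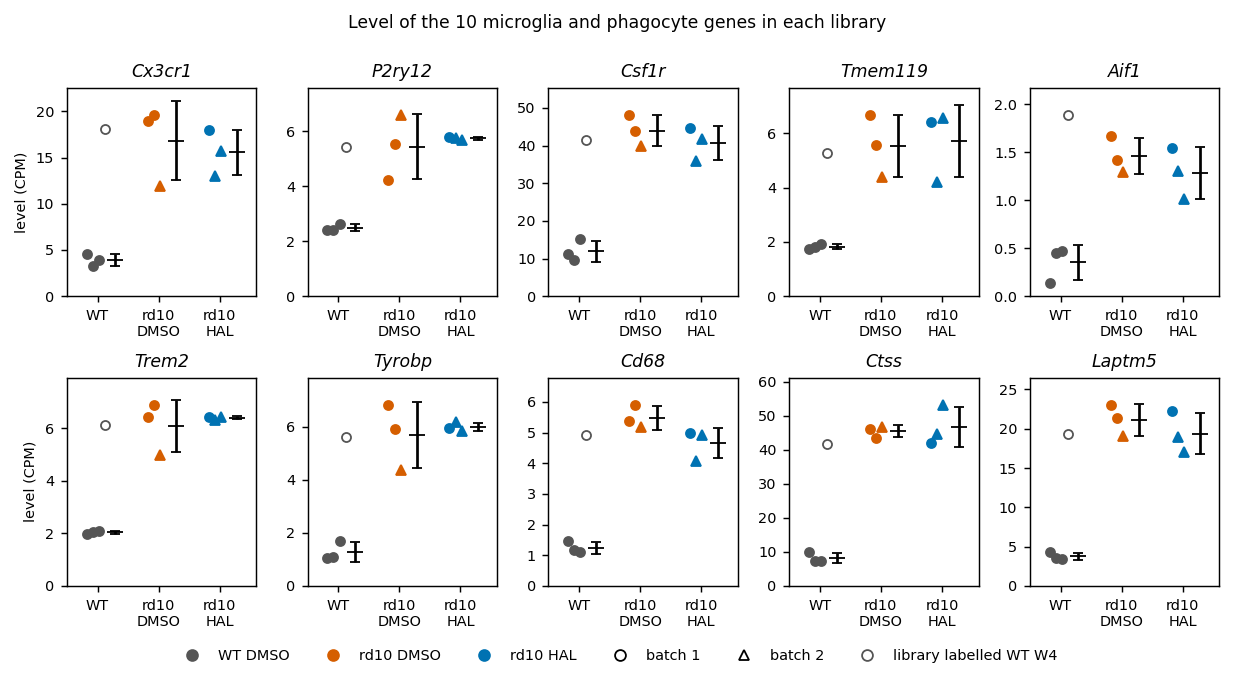
Level of each of the 10 genes (CPM, linear axis from 0) in every library by group, with batch 1 as circles and batch 2 as triangles; the horizontal mark and bar are the mean and SD of the 3 libraries of a group, W4 left out. W4 (open circle) sits with the rd10 libraries, and no rd10 library reaches down to W1-W3 for any gene.

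W4 changed the outcome of this comparison. Its Ctss level was 41.5 CPM, its Csf1r level 41.4 CPM and its Cx3cr1 level 18.1 CPM, all near the rd10 levels, and its summed level of the 10 genes was 149.7 CPM, against 32.5 to 39.6 CPM in W1-W3 and 140.3 to 167.2 CPM in the rd10 libraries. For 8 of 10 genes W4 lay within the range of the rd10 libraries; Aif1 (1.89 CPM) lay above that range and Ctss just below it. With W4 among the WT libraries, the log2 fold changes of the 4 genes of the gene table were 1.17 to 1.46, and 0 of 4 passed the test (adjusted p from 0.187 to 0.215, edgeR), as did 0.0% of 11698 genes. From transcript counts 0 of 10 passed, where 0.00566% of 17660 genes were called. At an unadjusted p under 0.05, 1 of 4 and 5 of 10 were counted, all as higher, beside 26.6% and 24.3% of all genes in either direction and 9.3% and 9.46% as higher. DESeq2 also called 0 of 4 and 0 of 10, where it called 5.04% and 3.92% of all genes.

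The genes did not rise in equal measure. Relative to the mean log2 level of the 10 in the same library, P2ry12 stood at 0.02 to 0.08 in W1-W3 and at -1.25 to -0.35 in the 6 rd10 libraries, and W4 was at -0.79. Tmem119 moved from -0.43 to -0.34 in W1-W3 to -1.02 to -0.48 in rd10, and Trem2 from -0.30 to -0.16 to -0.76 to -0.42, also without overlap. Ctss gained most, by 0.56 on average, and Laptm5 gained 0.48, but the ranges of both overlapped between W1-W3 and rd10. These relative values are a description, with no test, and the share of all genes with such a pattern is not given. The reference is the mean of the same 10 genes, with Aif1 at 3 counts in W1 among them. A gene that rose less than the others therefore falls here, although all 10 rose in CPM.

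Per kilobase of transcript (GENCODE M21 lengths), which allows levels to be compared between genes, Ctss was the most abundant in rd10 DMSO at 33.5 ± 1.30 CPM per kb (SD, n = 3). Csf1r followed at 13.03 ± 1.42, then Tyrobp at 9.55 ± 2.08 and Laptm5 at 9.54 ± 1.53, which did not differ beyond their spread. Cd68 (4.62 ± 0.261), Cx3cr1 (4.48 ± 1.12), Trem2 (3.85 ± 0.966) and P2ry12 (3.59 ± 1.08) came next, and Tmem119 (2.47 ± 0.511) and Aif1 (1.87 ± 0.459) were the lowest by mean. Among these 6, neighbours in the order overlapped, and Tmem119 in D1 lay above Trem2 in D3 and P2ry12 in D1. In W1-W3 Ctss was also first, at 5.97 ± 1.12 CPM per kb, and Csf1r second, at 3.62 ± 0.763, while P2ry12, at 1.60 ± 0.254, stood level with Laptm5 at 1.56 ± 0.331. For P2ry12 the split between transcripts varied widely, with the leading one taking 0.0% to 94.0% of its counts, and for Tyrobp and Aif1 it ran from 0.0% to 100.0%, which limits their place in this order.

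Halofantrine-treated rd10 retinas held the same 10 genes above W1-W3, with the same control libraries as above. All 10 passed the test (adjusted p from 1.31e-06 to 0.00398, edgeR), where 30.9% of 17473 genes were called higher, and 4 of 4 passed in the gene table, where 35.7% of 11699 were. The groups did not overlap for 10 of 10 genes, where 34.9% of genes showed that pattern. The log2 fold changes beside those of rd10 DMSO were 2.53 ± 0.14 and 2.50 for Ctss, 2.37 ± 0.14 and 2.51 for Laptm5, 1.99 ± 0.17 and 2.13 for Cx3cr1, and 1.79 ± 0.15 and 1.90 for Csf1r. P2ry12 was again the smallest, at 1.19 ± 0.15 beside 1.10. With W4 among the WT libraries, 0 of 4 genes of the gene table (log2 fold changes 1.05 to 1.49, adjusted p from 0.149 to 0.219, edgeR) and 0 of 10 from transcripts were called, where 0.00855% of 11699 and 0.00562% of 17806 genes were. At an unadjusted p under 0.05, 0 of 4 and 4 of 10 were counted, beside 34.6% and 30.0% of all genes in either direction and 13.6% and 12.4% as higher. DESeq2 called 0 of 4 and 0 of 10, where it called 19.0% and 11% of all genes. Because W1-W3 are all of batch 1, the fits were repeated within it. With D1 and D2, 10 of 10 genes were called (log2 fold changes 0.96 to 2.54), where 29.9% of 17735 genes were called higher (36.5% in the gene table, with 4 of 4 genes called). With H1 alone, assumed to vary like the WT libraries, 10 of 10 were called (1.2 to 2.55), where 23.6% of 18495 were (33.5% in the gene table, with 4 of 4 called). Within batch 1 the WT and rd10 libraries are still of different named sets, so genotype and set cannot be told apart.

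The effect of halofantrine itself was read from the 6 rd10 libraries. No level of the 10 genes passed the test: 0 of 10 were called, where 0.0% of 17891 genes were, and 0 of 4 in the gene table, where 0.0% of 11692 were (edgeR's quasi-likelihood test). At an unadjusted p under 0.05, 0 of 10 genes and 0 of 4 were counted, beside 4.7% and 4.76% of all genes, and DESeq2 called 0 of 10 and 0 of 4, beside 0.0335% and 0.0257% of all genes. The median log2 fold change of the 10 was -0.03, beside -0.01 over all genes.

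The estimates were small in both directions. Cd68 was the lowest at -0.24 ± 0.15 (SE, edgeR, adjusted p = 0.91), and H1-H3 (4.97, 4.08 and 4.92 CPM) were all below D1-D3; it was 1 of 10 genes without overlap, where 12.6% of genes had none. Ctss was at 0.04 ± 0.10 (adjusted p = 0.961), Csf1r at -0.11 ± 0.11 (adjusted p = 0.902), Cx3cr1 at -0.13 ± 0.21 (adjusted p = 0.937) and Laptm5 at -0.13 ± 0.12 (adjusted p = 0.902). The 95% interval of the fold was 0.877 to 1.21 for Ctss, 0.776 to 1.10 for Csf1r, 0.655 to 1.28 for Cx3cr1 and 0.748 to 1.12 for Laptm5. For Aif1, with the fewest counts, it ran from 0.571 to 1.35, so a change of that size would not have been detectable.

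**Figure D2:**
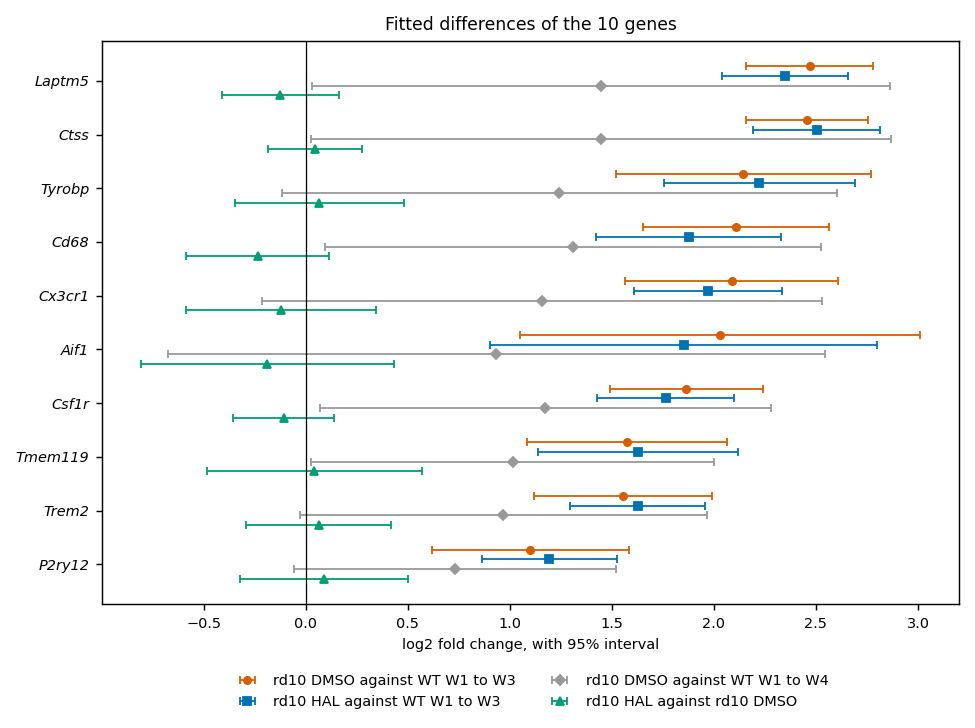
Log2 fold change (x axis) with its 95% interval for each of the 10 genes, from fits on genes summed from transcripts, in 4 comparisons; the 3 comparisons with WT share control libraries. Intervals against W1-W3 lie right of 0 for all 10 genes in both rd10 groups, those with W4 included contain 0 for 5 of 10 genes, and those of HAL against DMSO include 0 for all 10.

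Treatment and batch were unevenly mixed, with 1 HAL library in batch 1 and 2 in batch 2. Within batch 1, the log2 level of HAL minus DMSO was -0.10 for Cx3cr1, -0.04 for Csf1r, -0.09 for Ctss and 0.0043 for Laptm5, and within batch 2 it was 0.26, -0.05, 0.06 and -0.08. Of the 10 genes, 7 had opposite signs in the batches (Cx3cr1, P2ry12, Aif1, Trem2, Tyrobp, Ctss and Laptm5). Of the other 3, Csf1r and Cd68 (-0.18 and -0.21) were negative in both and Tmem119 was positive in both. These are differences between 1 library and the mean of 2, with no test.

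Between the batches, batch 2 was compared with batch 1 with treatment as a term. Cx3cr1 was at 18.8 ± 0.831 CPM in batch 1 and 13.6 ± 1.91 CPM in batch 2 (SD, n = 3 each), without overlap, at a log2 fold change of -0.50 ± 0.13 (edgeR, adjusted p = 0.0681). Laptm5, at 22.2 ± 0.845 and 18.3 ± 1.12 CPM, gave -0.27 ± 0.09 (adjusted p = 0.103), and Csf1r, at 45.6 ± 2.20 and 39.2 ± 3.06 CPM, gave -0.21 ± 0.08 (adjusted p = 0.162). Ctss had the other sign, at 0.14 ± 0.09 (adjusted p = 0.328). None passed the test, 0 of 4 in the gene table, where 4.63% of 11698 genes were called, and 0 of 10 from transcripts, where 1.97% of 18564 were. At an unadjusted p under 0.05, 3 of 4 and 3 of 10 were counted, beside 27.6% and 20.2% of all genes. DESeq2 called 1 of the genes, Cx3cr1, lower in batch 2 (adjusted p = 0.0176). It called 12.1% of all genes in the gene table and 7.08% from transcripts. Without H1, edgeR also called Cx3cr1 lower (-0.70, adjusted p = 0.025), and the share over all genes there is not given. Of the 10 genes, 4 (Cx3cr1, Aif1, Csf1r and Laptm5) had batches that did not overlap, all 4 lower in batch 2, where 22.8% of genes had none. The 9 rod markers were all called higher in batch 2, with a median log2 fold change of 1.37, and their part in the values of these genes was not tested.

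**Figure D3:**
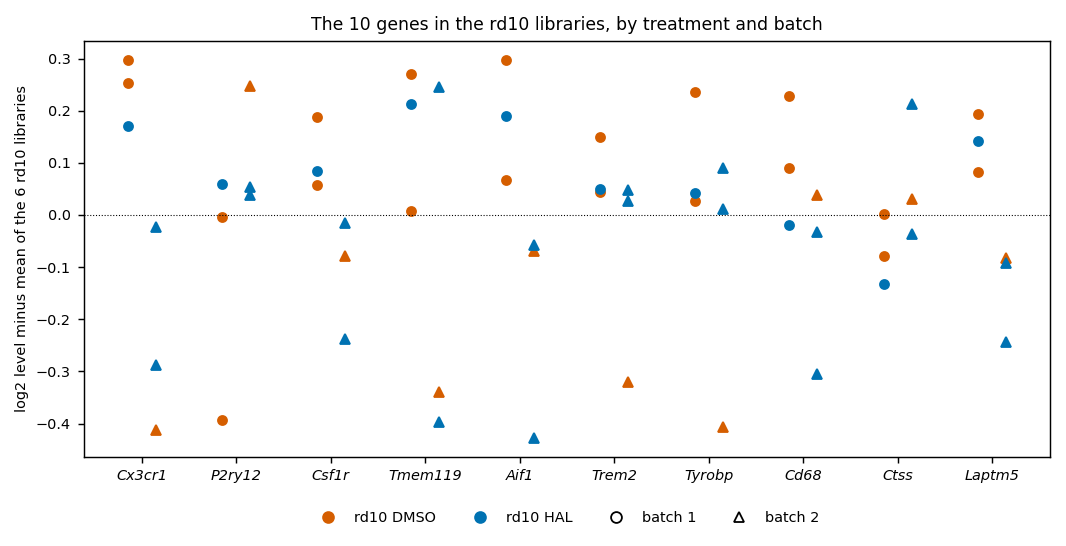
Log2 level of each gene in the 6 rd10 libraries minus its mean over them (y axis), with DMSO in orange and HAL in blue, batch 1 as circles on the left and batch 2 as triangles on the right. Cx3cr1, Csf1r, Aif1 and Laptm5 lie lower in batch 2 with no overlap, while orange and blue are mixed for every gene but Cd68.

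The partners of these receptors were read from a list of 12 ligands, signalling molecules and lineage factors, of which 11 could be tested from transcript counts. In rd10 DMSO against W1-W3, 10 of 11 passed the test as higher and 0 as lower, with a median log2 fold change of 1.38. For this and the lists that follow, 26.9% of all 17324 genes tested were called higher and 25.5% lower, with a median of 0.003. Csf1, a ligand of Csf1r, was at 3.74 to 4.17 CPM in W1-W3 and at 20.9, 19.96 and 17.98 CPM in D1-D3, and rose by 2.27 ± 0.12 (SE, edgeR, adjusted p = 1.41e-05). Cx3cl1, the fractalkine made by neurons, rose by 0.74 ± 0.09 (adjusted p = 0.000468), from 92.7 to 101 CPM in W1-W3 to 175, 175 and 142 CPM in D1-D3. Cebpa, a myeloid transcription factor, rose by 2.26 ± 0.27 (adjusted p = 0.000373). Spi1, the gene of PU.1, was scarce, at 0.013 to 0.173 CPM in W1-W3, 0.407 to 0.628 CPM in rd10 DMSO and 0.810 to 1.51 CPM in rd10 HAL. It was kept for testing through its rd10 levels, so nothing is read from its pass against W1-W3 (edgeR, adjusted p = 0.0259). Between HAL and DMSO it did not pass, at 1.10 ± 0.36 on the log2 scale (edgeR, unadjusted p = 0.0152, adjusted p = 0.91). All 3 HAL libraries lay above all 3 of DMSO, where 12.6% of genes had no overlap in either direction.

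Of 10 further genes of resting microglia, 8 rose in rd10 DMSO and 0 fell, with a median of 1.24. Fcrls, an Fc receptor-like protein of microglia, rose by 2.84 ± 0.22 (SE, edgeR, adjusted p = 5.17e-05), and Olfml3 by 1.36 ± 0.19 (adjusted p = 0.000707). Of 18 tested genes of activated, phagocytic microglia, 16 rose and 0 fell, with a median of 1.13. Several, such as Itgax, Lilrb4a, Clec7a and Ccl6, were scarce in W1-W3 and kept for testing through rd10, so nothing is read from their calls. Axl, a receptor tyrosine kinase for apoptotic cells, rose by 1.68 ± 0.10 (adjusted p = 2.07e-05), and the tetraspanins Cd63 and Cd9 by 1.28 ± 0.11 (adjusted p = 7.14e-05) and 1.21 ± 0.09 (adjusted p = 5.14e-05). Some of these genes, such as Cd9 and Cd63, are also made by other retinal cells. Markers of the resting and of the activated state were thus both higher in rd10 DMSO. Bipolar and Muller glia markers, described below, were also higher, at medians of 1.00 and 1.02. A rise of this size was therefore not particular to these lists.

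Of 17 tested phagocytic receptors and bridging molecules, 12 rose and 4 fell, with a median of 1.10, and the 4 that fell are near the share of all genes that did. Those that rose included Itgam, a chain of complement receptor 3, by 1.77 ± 0.15 (SE, edgeR, adjusted p = 9.18e-05), Fcgr3, an immunoglobulin receptor, by 2.55 ± 0.27 (adjusted p = 0.000221), and Cd47, a signal against engulfment, by 0.64 ± 0.07 (adjusted p = 0.000304). Those that fell were Gas6, Tyro3, Sirpa and Mfge8, at -0.49, -0.48, -0.34 and -0.32, which are known from neurons, glia or pigment epithelium as well as phagocytes. With scaling by library size only, 1 of them, Gas6, still passed, at -0.25 (edgeR, adjusted p = 0.0401), where 2405 of 17324 genes were called lower. Of 13 cytokines and chemokines only 4 had enough counts to test, and 1 of 4 rose, Cxcl16, by 0.81 ± 0.14 (adjusted p = 0.00217), which is near the share of all genes. Tgfb1, at 1.07 ± 0.41 (adjusted p = 0.061), and Il18, at 0.36 ± 0.16 (adjusted p = 0.0972), did not pass. With scaling by library size only both did (adjusted p = 0.0277 and 0.0142), which made it 3 of 4, where 40.3% of all genes were called higher under that scaling.

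With W4 among the WT libraries, none of these lists had a called gene: 0 of 11 signalling, 0 of 10 resting, 0 of 19 activated, 0 of 18 phagocytic and 0 of 5 cytokine genes. In that order their medians were 0.86, 0.87, 0.75, 0.80 and 0.71. At an unadjusted p under 0.05, 5, 4, 6, 7 and 0 of their genes were counted, beside 24.3% of all genes in either direction and 9.46% as higher. Between HAL and DMSO, in the same order, 0 genes of any of these lists were called (edgeR), with medians of 0.06, -0.07, -0.10, -0.10 and 0.14, and 1 of 12, 0 of 10, 3 of 19, 1 of 18 and 0 of 7 genes at an unadjusted p under 0.05, beside 4.7% of all genes.

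**Figure D4:**
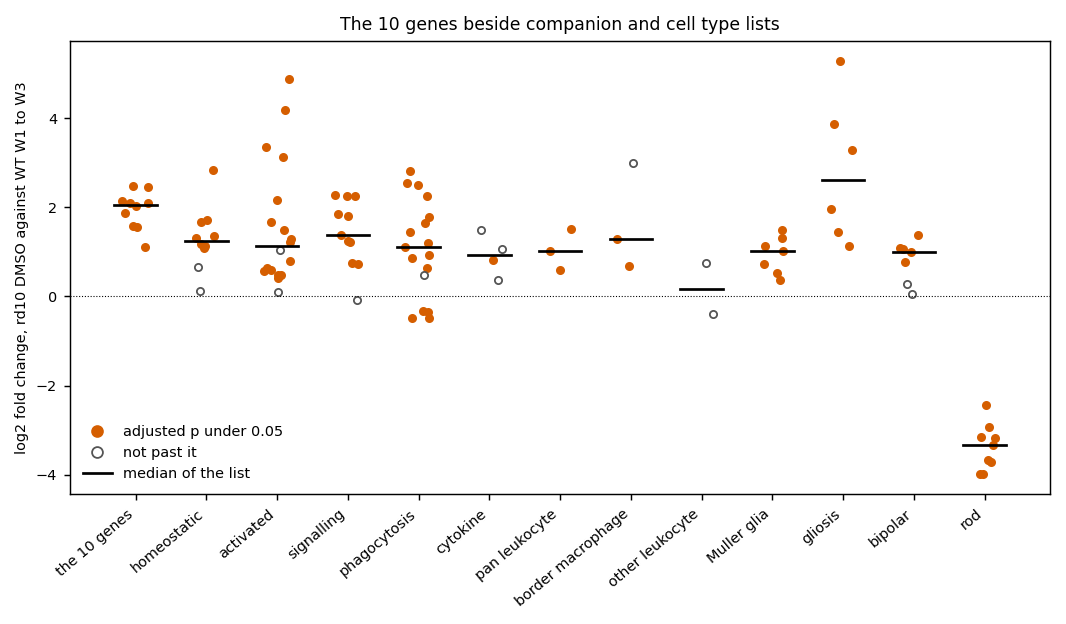
Log2 fold change of rd10 DMSO against W1-W3 (y axis) for each tested gene of the 10 and of companion and cell type lists (x axis), filled where the adjusted p is under 0.05, with the list median as a bar. The 10 genes (median 2.06) lie above the bipolar (1.00) and Muller glia (1.02) markers and below the gliosis genes (2.61), and the rod markers lie at -3.33.

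Markers of some other cells moved in the same comparison. Cone markers (2 of 8 higher and 2 lower, median -0.01) and pigment epithelium markers (1 of 6 higher, median 0.4) did not move as a set. The 9 rod markers all fell, with a median of -3.33. Called higher were 5 of 7 bipolar (median 1.00), 7 of 7 Muller glia (median 1.02) and 8 of 9 amacrine and ganglion cell markers (median 0.66). So were 6 of 6 gliosis genes (median 2.61). Of the endothelial markers 2 of 6 were (median 0.42), which is near the 26.9% of all genes called higher. With W4 among the WT libraries, 0 genes of each of these lists were called (edgeR), with medians of -2.95 for rod, 0.66 for bipolar, 0.64 for Muller glia, 0.43 for amacrine and ganglion cell, 1.62 for gliosis and 0.37 for endothelial genes. At an unadjusted p under 0.05, 9 of 9, 2 of 7, 2 of 7, 2 of 9, 4 of 6 and 1 of 6 were counted in that order, beside 24.3% of all genes in either direction and 9.46% as higher. The summed level of the 7 bipolar markers was 1399 to 1491 CPM in W1-W3 and 2298 to 2783 CPM in the rd10 libraries, a ratio of means of 1.79. The same ratio was 4.19 for the 10 microglia and phagocyte genes, 4.77 for gliosis, 2.14 for endothelial, 1.74 for Muller glia and 1.54 for amacrine and ganglion cell genes. For the further resting and activated microglia genes it was 1.73 and 1.8. Apoe stands in both the activated and the Muller glia list. The part of the rod loss in the rise of the 10 genes was not tested.

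Markers of other leukocytes were low. Of 13 markers of monocytes, neutrophils and lymphocytes, 12 stayed under 1 CPM in all 10 libraries, and their sum was 1.42 to 1.68 CPM in W1-W3 and 2.08 to 3.49 CPM in rd10. S100a8, of neutrophils, was at most at 0.089 CPM, and Cd3e, of T cells, was at most at 0.122 CPM. In rd10 DMSO against W1-W3, 0 of 2 tested markers were called (edgeR, 0 at an unadjusted p under 0.05). With scaling by library size only it was 1 of 2 as higher, where 40.3% of all genes were. With W4 kept, 0 of 3 were called in rd10 DMSO, and 0 at an unadjusted p under 0.05. The 3 genes shared by all leukocytes rose, 3 of 3, with a median of 1.03, among them Ptprc, or CD45, by 1.52 ± 0.19 (adjusted p = 0.000481). With W4 kept, 0 of 3 of these were called, and 0 at an unadjusted p under 0.05. The 5 red blood cell genes summed to 37.96 to 67.9 CPM in W1-W3, 16.4 to 32.5 CPM in rd10 DMSO and 12.6 to 104.0 CPM in rd10 HAL. Of these, 4 of 5 were called lower in rd10 DMSO against W1-W3 (median -1.06), where 25.5% of all genes were. With scaling by library size only it was 1 of 5, where 2405 of 17324 genes were called lower. With W4 kept it was 0 of 5 (2 at an unadjusted p under 0.05). Between HAL and DMSO it was 0 of 5 (median 1.46, 1 at an unadjusted p under 0.05).

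Border macrophage markers summed to 17.6 to 18.9 CPM in W1-W3, 28.3 to 45.6 CPM in rd10 DMSO and 35.7 to 42.1 CPM in rd10 HAL. Of 3 tested, 2 rose, Lyve1 by 0.68 ± 0.09 (edgeR, adjusted p = 0.00067) and Stab1 by 1.28 ± 0.23 (adjusted p = 0.00243). Mrc1 did not pass (adjusted p = 0.0728), at 2.56, 0.249 and 4.06 CPM in D1-D3. In rd10 HAL against the same WT libraries, 5 of 5 tested were called higher, where 30.9% of genes were: Lyve1 at 0.90 ± 0.10 (adjusted p = 5.57e-05), Stab1 at 1.24 ± 0.12 (adjusted p = 2.62e-05), and Mrc1, Cd163 and F13a1 at 2.74, 3.57 and 2.63. These last 3 averaged only 0.287, 0.098 and 0.161 CPM in W1-W3 and were kept for testing through their levels in HAL, so nothing is read from the count, and Cd163 and F13a1 were not tested in rd10 DMSO against W1-W3. In rd10 DMSO with W4 kept among the WT libraries, 0 of 5 were called, and 0 at an unadjusted p under 0.05. Their part in the levels of genes that such macrophages share with microglia, such as Csf1r and Cd68, was not tested.

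The genes whose log2 CPM followed the mean of the 4 gene-table members most closely over the 10 libraries were C1qb, Rnf152, Tnfrsf1a, C1qa and Gucy1a1 (Pearson's r from 0.996 to 0.998). C1qb and C1qa encode chains of complement C1q, which microglia make, and Tnfrsf1a a receptor for tumour necrosis factor. The 10 libraries fall into 2 sets, W1-W3 and the rest, and 1577 of 11692 genes had r above 0.95, so a high r was common. Within the 6 rd10 libraries r was 0.903 for C1qb, 0.813 for Tnfrsf1a, 0.778 for Gucy1a1, 0.747 for Rnf152 and 0.628 for C1qa. C1qb was at 3.74, 3.36 and 4.09 CPM in W1-W3, at 27.96, 23.3 and 21.1 CPM in D1-D3 and at 26.0, 21.1 and 22.6 CPM in H1-H3.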

How the data were processed

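The authors pseudoaligned reads of stranded libraries with Kallisto to the Ensembl (release 115) mouse transcriptome, which their processing notes place on GRCm39, imported them with tximport, and deposited estimated counts per transcript (275112) and per gene (11702). The rule by which genes were kept, and the Kallisto version, are not given in the sources used here. The authors' deposited CPM are the gene counts divided by 1 factor per library, a scaled signal whose sums differ between libraries, and it lay within 1% of TMM scaling here. A deposited table of the authors' own halofantrine comparison (fold changes and p-values) was not used.

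Deposited transcript counts were summed per gene with GENCODE M21 (another build than GRCm39), which matched 133857 transcripts and 97.4% to 97.7% of the counts of each library; 94.2% of the genes in both tables agreed within 1 count. This table was added after 6 of the 10 genes were missing from the gene table, and both were tested alike. Counts were rounded, filtered by filterByExpr, scaled by TMM and compared in edgeR 4.0.16 (R 4.3.3, quasi-likelihood test) with Benjamini-Hochberg adjustment over all genes tested, at 0.05. Fits held only the libraries compared, with no batch term except where stated. Standard errors and 95% intervals came from the same test. The fitting code was also run on simulated counts with known changes. These had no batches, no outlying library and the same spread for all genes, so that run does not speak to those features of the data.

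Alternatives were DESeq2 1.42.0, limma-voom (limma 3.58.1), RLE or library size scaling, no filter, limma on log2(deposited CPM + 1) and + 0.1, all 10 libraries in 1 fit, batch 1 only, batch as a term, W4 kept in the HAL comparison (added later), an unadjusted p under 0.05 with a 1.2-fold change, and each replicate left out. The members and lists were chosen with earlier results of these data known. Named genes are all 10 members, the 3 tested genes of smallest p from each of 5 lists (resting, activated, signalling, phagocytosis, cytokine), and the 5 genes most correlated with the members. Of these, 1 gene of the resting list is not reported here. Spi1, Gas6, Tyro3, Sirpa, Mfge8 and the marker genes named were chosen after their values were seen. No library was a copy of another: within groups, the mean chi-square of a gene between libraries was 4.48 or more. The labels give set names but do not say which libraries came from separate animals, so p-values measure the spread between these libraries.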

Additional observations from a re-analysis of the deposited data

Results flagged for a closer look

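In the WT group of 4 libraries, W4 stood apart for 8 of the 10 genes and for their sum. The gap between W4 and the nearest other WT library, as a share of the whole WT range, was above Dixon's 95% critical value for 4 values for Trem2 (0.972), Tmem119 (0.949), Laptm5 (0.949), P2ry12 (0.926), Ctss (0.922), Cx3cr1 (0.913), Cd68 (0.907) and Tyrobp (0.857), and it was 0.939 for the summed level. W4 was the highest each time. Chance alone would pass this limit in about 1 of 20 groups, and the 11 values tested come from the same 4 libraries. For Csf1r and Aif1, W4 was also the highest WT library, but the gap did not pass the limit.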

How the results depend on the processing

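In rd10 DMSO against W1 to W3 and in rd10 HAL against W1 to W3, all 10 genes kept their direction and passed the test under every alternative run that left W4 out (log2 fold changes 0.96 to 2.72 and 1.17 to 2.73). Scaling by library size alone moved the median of all genes from 0.003 to 0.245 in the first, and the share of calls that were higher from 51.3% to 74.4%; in the second that share went from 50.5% to 72.2%. With W4 kept, an alternative added after seeing the data, 0 of 4 and 0 of 10 were called in the second. In the first with W4 kept, 0 of 4 and 0 of 10 genes were called; the range over leaving out 1 library was 0 to 4 and 0 to 10, the upper values without W4. By an unadjusted p under 0.05 and a 1.2-fold change, 1 of 4 and 5 of 10 were. Between batches, 0 genes became 1 with DESeq2 in both tables, 1 without a filter on transcript sums, 0 to 1 over left-out libraries in both (1 without H1) and 2 by the unadjusted rule in both. For these batch counts other than DESeq2, and for the 1.2-fold rule above, the share over all genes is not given. Nothing is read from those counts.

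HAL against DMSO stayed without a call among the 10 genes throughout, with adjusted p of 0.619 to 1, but signs turned: with batch as a term Cx3cr1 came to 0.0728 and Ctss to -0.0126, and with limma-voom Tmem119 came to -0.0001. With 1 library left out, values ran from -0.3105 to 0.0017 for Cx3cr1 (highest without D2), from -0.0635 (without H3) to 0.111 for Ctss, from -0.0558 (without D1) to 0.2301 for P2ry12, and, each lowest without D3, from -0.0899 to 0.2262 for Tmem119, from -0.0555 to 0.1726 for Trem2 and from -0.0806 to 0.2181 for Tyrobp. Tmem119 was also below 0 without H1 (-0.034) and without H3 (-0.0662). Between batches they ran from -0.0039 to 0.405 for P2ry12 and from -0.5581 to 0.019 for Tyrobp, turning without D3. The cause was not tested. No paired analysis was possible because the replicate numbers follow accession order and pair no libraries. In rd10 DMSO against W1 to W3, library size scaling moved the calls from 1 to 3 of 4 cytokines as higher. As lower, it moved them from 4 to 1 of 5 red blood cell genes and from 4 to 1 of 17 phagocytosis genes. Calls as higher rose in other lists too, such as bipolar from 5 to 7 of 7, resting from 8 to 9 of 10 and other leukocytes from 0 to 1 of 2. Over all 17324 genes, calls went from 4657 to 6986 as higher and from 4421 to 2405 as lower. Depth limited Aif1 most, and 9 of the 13 cytokines had too few counts to test in rd10 DMSO against W1 to W3.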
